A study of Rattus norvegicus with 8 samples.

Results

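Cyp1b1, Aox1 and Xdh were examined together with 4 further genes of the aryl hydrocarbon pathway, Cyp1a1, Ahr, Nqo1 and Ephx1, in the adrenal glands of rat pups (Rattus norvegicus). The members are the 7 genes whose symbol the platform's annotation gives to a probe set on its own. They had 8 of the 15923 probe sets of the array and are 7 of the 10411 genes it names. All 8 probe sets and all 8 pools are described. Of these, 6 probe sets for 6 genes were bright enough for the fit over the whole table, while Cyp1a1 and the dimmer of 2 Ahr probe sets were not. The choice of the genes drew on the hypoxic against normoxic contrast given here, so the values of Cyp1b1, Aox1 and Xdh in it are a description, and the adjusted p-values place the genes in the whole table and support nothing further.

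The hypoxic pups had been held with their dams at 12% O2 from birth to postnatal day 7, and the normoxic pups in room air, their dams being fed ad libitum. The strain was not given in the sources used here. Glands were decapsulated, which removes the outer shell, and 24 were pooled per sample. There were 4 hypoxic and 4 normoxic pools, each read on its own 1-colour array. Which litters went into which pool was not stated in the sources either, so p-values measure the spread between these pools.

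The aryl hydrocarbon receptor, encoded by Ahr, is a ligand-activated transcription factor that pairs with Arnt and binds short elements with the core letters GCGTG. Arnt is also the partner of the hypoxia-inducible factors. Cytochromes of the Cyp1 family are its best known targets and oxidise aromatic compounds and steroids, and in the rat adrenal cortex Cyp1b1 is known to be expressed without added ligand and to respond to ACTH. Nqo1, a quinone reductase, is a target of both this receptor and the oxidant sensor Nrf2, and Ephx1 is the microsomal epoxide hydrolase that acts on epoxides made by such cytochromes. Aox1 and Xdh are the molybdenum hydroxylases: aldehyde oxidase oxidises aldehydes and nitrogen heterocycles, while xanthine dehydrogenase turns hypoxanthine into xanthine and uric acid and can be converted to an oxidase that releases reactive oxygen.

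Promoter windows of 250 bases before to 50 bases after the gene's start are shown for the 3 genes whose hypoxic and normoxic pools did not overlap, since the receptor's core element is one thing their upstream sequence can be searched for. Sequences are from RefSeq, build GRCr8, all on the + strand: chr6:21094315-21094614 for Cyp1b1, chr9:67073641-67073940 for Aox1 and chr6:27282069-27282368 for Xdh. Capitals mark GCGTG or, for the other strand, its reverse complement CACGC.
Cyp1b1 promoter: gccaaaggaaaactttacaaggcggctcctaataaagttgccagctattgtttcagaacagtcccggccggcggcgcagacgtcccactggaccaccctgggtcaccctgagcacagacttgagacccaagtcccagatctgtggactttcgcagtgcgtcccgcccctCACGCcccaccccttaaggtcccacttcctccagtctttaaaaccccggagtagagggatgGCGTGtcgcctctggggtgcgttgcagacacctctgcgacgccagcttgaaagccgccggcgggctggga
Aox1 promoter: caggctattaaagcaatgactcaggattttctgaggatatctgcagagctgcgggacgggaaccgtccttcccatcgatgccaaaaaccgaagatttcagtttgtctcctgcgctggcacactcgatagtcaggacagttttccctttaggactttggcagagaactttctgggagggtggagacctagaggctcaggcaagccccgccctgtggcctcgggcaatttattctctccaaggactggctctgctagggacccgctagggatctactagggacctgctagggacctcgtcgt
Xdh promoter: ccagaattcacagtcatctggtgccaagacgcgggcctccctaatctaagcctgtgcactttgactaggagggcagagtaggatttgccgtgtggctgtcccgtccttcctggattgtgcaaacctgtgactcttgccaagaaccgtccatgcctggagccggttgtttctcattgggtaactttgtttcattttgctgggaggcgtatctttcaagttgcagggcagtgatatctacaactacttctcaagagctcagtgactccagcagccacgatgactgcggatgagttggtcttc
The Cyp1b1 window held 2 matches to GCGTG, the first starting 81 bases before the gene's start on the other strand and the second 20 bases before it on the printed strand. The Aox1 and Xdh windows held 0 matches. Of all 33469 promoter windows of this length, 29.7% held at least 1 match on either strand and 10.2% held 2 or more. The core of the hypoxia-inducible factors was searched as ACGTG, and a letter pattern of the antioxidant response element, TGACNNNGC, was searched too, both on both strands. Neither was found in these 3 windows, against 19.3% and 12.1% of all windows. The factors' core in its other spelling is GCGTG itself and so falls on the same matches. Windows were found for 6 of the 7 genes, not for Cyp1a1. Ephx1 had 2 windows. That of Nqo1 held 1 match to GCGTG and those of Ahr and Ephx1 held 0. In 1 of the Ephx1 windows there was 1 match to TGACNNNGC, starting 57 bases before the start on the other strand. A match is a run of letters, not a measured site.

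Cyp1b1 was higher in the hypoxic glands. Its intensity, in arbitrary units, was 7392.0, 8227.0, 7467.8 and 7489.8 in hypoxic pools 1 to 4, against 3912.2, 3503.7, 5465.7 and 4801.5 in normoxic pools 1 to 4. Every hypoxic pool lay above every normoxic pool, and the hypoxic pools stood close together while the normoxic pools were spread out. The highest pool was 1.11 times the lowest in the hypoxic group and 1.56 times the lowest in the normoxic group, a difference in spread that was not tested. The means were 7644 ± 391 in hypoxic and 4421 ± 883 in normoxic pools (SD, n = 4 pools each). The log2 difference was 0.81 with a standard error of 0.13 and a 95% interval from 0.53 to 1.09 (limma, adjusted p = 0.0325). In these bulk pools, more RNA per cell and more cells of a type cannot be told apart.

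The other Cyp1 cytochromes with a probe set were too dim for the fit. Cyp1a1, the classical target of the receptor, had values of 10.5, 10.7, 8.7 and 10.0 in hypoxic pools, against 9.4, 8.8, 12.5 and 6.3 in normoxic pools. All lay within the range of 27 probe sets for bacterial genes, whose median was 5.4 and whose highest value was 83.5. A Cyp1a1 transcript was thus not distinguishable from background on this array, and no fold is given. Cyp1a2, the remaining gene of the family with a probe set of its own, lay between 60.3 and 104.0 in hypoxic and between 74.8 and 100.7 in normoxic pools. Several of these values were above the highest bacterial value, but its groups overlapped, and it was below the filter of the fit, a mean signal of 95.2.

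Ahr itself did not pass the test. Its brighter probe set read 126.2, 122.9, 173.2 and 107.6 in hypoxic pools and 145.8, 145.5, 172.8 and 117.9 in normoxic pools. The groups overlapped over most of their range, with pool 3 the highest and pool 4 the lowest in both. The log2 difference was -0.13, with an interval from -0.51 to 0.25 (limma, adjusted p = 0.881). The dimmer Ahr probe set, with a mean of 75.7 ± 13.2 in hypoxic and 78.1 ± 21.1 in normoxic pools (SD, n = 4 pools each), reached into the range of the bacterial probe sets and was not tested.

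**Figure D1:**
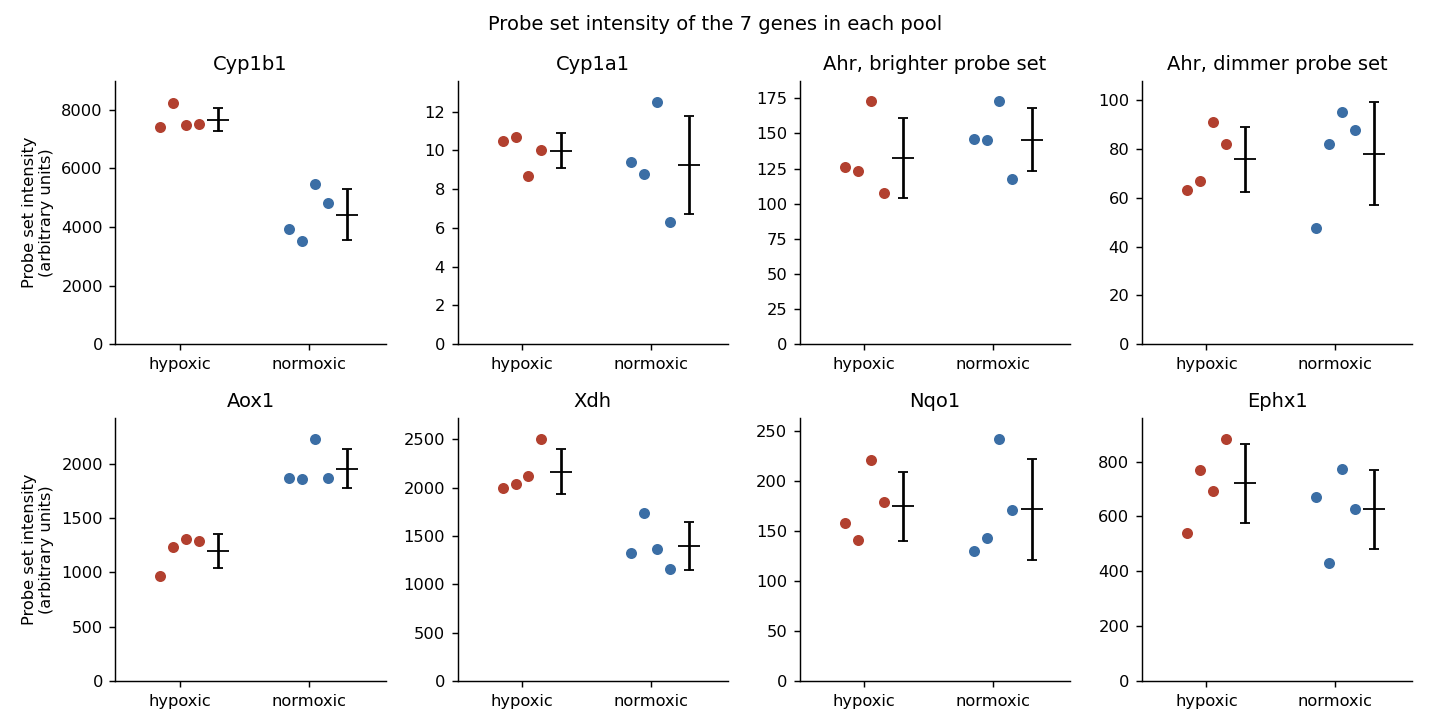
Probe set intensity (arbitrary units, each panel on its own axis from 0) for the 8 probe sets of the 7 genes, 1 point per pool, hypoxic in red at left and normoxic in blue at right, with mean and SD as a bar beside the points (n = 4 pools each). Hypoxic and normoxic points are separate for Cyp1b1, Xdh and Aox1 and overlap in the other 5 panels.

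The molybdenum hydroxylases differed in opposite directions. Aox1 had an intensity of 970.0, 1235.6, 1308.6 and 1287.6 in hypoxic pools 1 to 4, against 1867.3, 1858.9, 2224.0 and 1870.7 in normoxic pools 1 to 4. All hypoxic pools were below all normoxic pools, hypoxic pool 1 being the lowest and normoxic pool 3 the highest. The means were 1200.4 ± 157 in hypoxic and 1955 ± 179 in normoxic pools (SD, n = 4 pools each), so that the log2 value was lower by 0.70 (difference -0.70, standard error 0.11, interval -0.95 to -0.45; limma, adjusted p = 0.0329).

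Xdh had an intensity of 1994.1, 2039.1, 2120.8 and 2500.9 in hypoxic pools, against 1324.3, 1737.3, 1359.8 and 1157.8 in normoxic pools. The groups did not overlap, although normoxic pool 2 came near the lowest hypoxic pool. The means were 2164 ± 231 in hypoxic and 1395 ± 245 in normoxic pools (SD, n = 4 pools each). The log2 difference was 0.64 with a standard error of 0.13 and an interval from 0.36 to 0.91. In the whole table this did not pass (limma, adjusted p = 0.0970), and Xdh stood 34th by p-value where Cyp1b1 stood 15th and Aox1 17th.

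Nqo1 and Ephx1 had overlapping groups. Nqo1 read 157.8, 141.2, 221.1 and 178.9 in hypoxic pools and 130.1, 142.6, 242.1 and 171.0 in normoxic pools, with pool 3 the highest in both. Its log2 difference was 0.04 (interval -0.39 to 0.48; limma, adjusted p = 0.972), and the sign turned to -0.07 without hypoxic pool 3, -0.06 without normoxic pool 1 and -0.02 without normoxic pool 2. Ephx1 read 539.7, 767.8, 694.0 and 882.7 in hypoxic pools and 671.9, 430.7, 773.5 and 626.0 in normoxic pools, hypoxic pool 1 and normoxic pool 2 being low for their groups. Its log2 difference was 0.21 (interval -0.19 to 0.61; limma, adjusted p = 0.808). Intervals of this width do not show that the groups were alike.

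**Figure D2:**
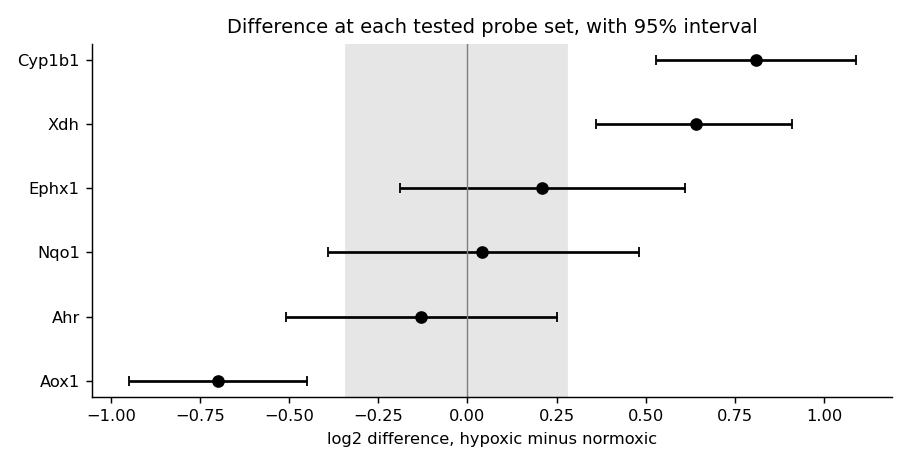
Log2 difference, hypoxic minus normoxic, at the 6 tested probe sets (points) with 95% intervals (bars); the grey band holds the middle 90% of all 11106 tested probe sets, from -0.34 to 0.28. The intervals of Cyp1b1 and Xdh lie wholly above the band, that of Aox1 wholly below it, and those of Ephx1, Nqo1 and Ahr cross 0.

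Of the 6 tested genes, Cyp1b1 rose and Aox1 fell at an adjusted p of 0.05, where 20 of 11106 probe sets (0.180%) passed, 13 higher (0.117%) and 7 lower (0.0630%). Groups that do not overlap were found for 3 of the 6, Cyp1b1, Xdh and Aox1, against 5.39% of all tested probe sets. Since the genes were chosen on this contrast, nothing is read from those shares. For 7 of the 8 pools, leaving that pool out lost both calls. Cyp1b1 then had an adjusted p from 0.0524 to 0.124 and Aox1 one from 0.0621 to 0.118 (limma). Without hypoxic pool 1 both still passed (0.0442 for Cyp1b1 and 0.0425 for Aox1). The log2 difference stayed between 0.70 and 0.92 for Cyp1b1 and between -0.75 and -0.60 for Aox1 in these fits, and between 0.55 and 0.75 for Xdh.

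**Figure D3:**
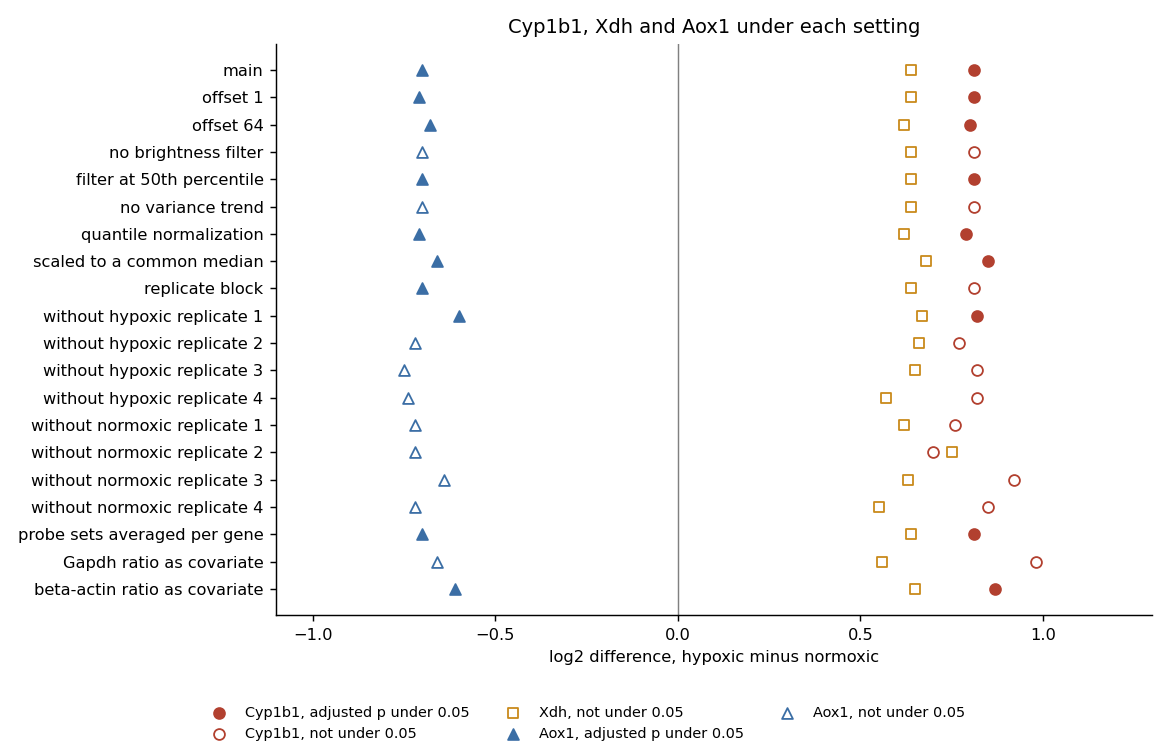
Log2 difference, hypoxic minus normoxic, of Cyp1b1 (circles), Xdh (squares) and Aox1 (triangles) in the fit as reported and under each of 19 alternative settings; filled marks have an adjusted p under 0.05 in limma. Cyp1b1 stays between 0.70 and 0.98, Xdh between 0.55 and 0.75 and Aox1 between -0.75 and -0.60, while the marks are open under 11 of the 19 alternatives for Cyp1b1, under 10 for Aox1 and under all for Xdh.

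Within the normoxic group Cyp1b1 and Aox1, which differed in opposite directions between the groups, had their extremes in the same pools. Both were highest in normoxic pool 3 and lowest in normoxic pool 2, by a small margin for Aox1. Nqo1 and Ephx1 were also highest in normoxic pool 3, and Xdh was highest in normoxic pool 2. Among hypoxic pools, pool 1 was the lowest for Cyp1b1, Aox1, Xdh and Ephx1, pool 2 the highest for Cyp1b1 and pool 4 the highest for Xdh and Ephx1.

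The partners and regulators of the receptor gave few differences. Of 9 tested genes in this list, 0 passed limma over the whole table, 5 were higher and 4 lower, and the median log2 difference was 0.00 against -0.02 for all tested probe sets, of which 45.2% were higher. At an unadjusted p under 0.05 there was 1 gene, Tiparp, where 8.64% of all probe sets had such a p. Tiparp, a target of the receptor that in turn represses it, measured 488.8, 488.4, 455.4 and 430.7 in hypoxic pools, against 526.3, 493.2, 599.3 and 714.4 in normoxic pools. The groups just failed to meet, 488.8 against 493.2 being the nearest values, and the log2 difference was -0.30 (limma, adjusted p = 0.527). Arnt, the receptor's partner, had a log2 difference of 0.20 with an interval from -0.29 to 0.69. The coactivator gene Ncoa3 differed by -0.40 and Ptges3, the co-chaperone of the receptor complex, by -0.15, with adjusted p of 0.625 and 0.672 in limma.

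Other genes of xenobiotic metabolism were also short of the threshold, with 0 of 10 tested past it, 7 higher and 3 lower, and a median log2 difference of 0.06. A further 5 of the 15 with a probe set were below the filter of the fit. At an unadjusted p under 0.05 in limma there was 1 of them, Cbr1, a share close to the 8.64% of all probe sets. Cbr1, a carbonyl reductase, averaged 3506 ± 388 in hypoxic and 2898 ± 240 in normoxic pools (SD, n = 4 pools each), a log2 difference of 0.27 (limma, adjusted p = 0.487), and its groups overlapped. The phenol sulfotransferase gene Sult1a1 differed by 0.37, Nqo2, the relative of Nqo1, by -0.16 and the cytokine signalling inhibitor gene Socs2 by -0.30, with adjusted p from 0.703 to 0.770. Por, which passes electrons to microsomal cytochromes P450 such as Cyp1b1, had a log2 difference of 0.20 (adjusted p = 0.828).

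Among the target genes of Nrf2, which controls Nqo1, 11 of 14 tested were higher and 3 lower, where 45.2% of all tested probe sets were higher, and the median log2 difference was 0.05. None passed limma over all probe sets (0 of 14), while 2 of the 14 had an unadjusted p under 0.05, where 8.64% of all probe sets did. Their summed intensities ran from 30303 to 32708 in hypoxic and from 27373 to 29832 in normoxic pools. These sums did not overlap, while those of the other related lists did, and the difference was not tested. Bright genes weigh most in such a sum, while the median of 0.05 counts each gene alike. The gene with the lowest p was Pgd, an enzyme of the pentose phosphate pathway, with 3057.9, 4319.8, 3792.8 and 4472.3 in hypoxic pools, against 2613.4, 2756.1, 3289.2 and 2947.8 in normoxic pools. Hypoxic pool 1 fell inside the normoxic range, and the log2 difference was 0.42 (limma, adjusted p = 0.325). Abcc1, an exporter of glutathione conjugates, differed by 0.26 with no overlap between groups (adjusted p = 0.499), Gclc, the catalytic subunit that starts glutathione synthesis, by 0.22 and 0.24 on its 2 probe sets, and the sulfiredoxin gene Srxn1 by 0.21. Nfe2l2, which encodes Nrf2, differed by 0.06.

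Aox1 and Xdh share the molybdenum cofactor, and the genes that make it did not pass. Of 7 tested genes for the cofactor and for other molybdenum enzymes, 0 passed limma and 0 had an unadjusted p under 0.05, 3 were higher and 4 lower, and the median log2 difference was -0.03. Mocos, the sulfurase that completes the cofactor of Aox1 and Xdh, averaged 165 ± 39.1 in hypoxic and 191 ± 11.8 in normoxic pools (SD, n = 4 pools each), a log2 difference of -0.22 (limma, adjusted p = 0.776). Mocs2, a molybdopterin synthase gene, differed by -0.19, the amidoxime reductase gene Mtarc2 by 0.12 and Suox, the sulfite oxidase gene, by 0.11, with adjusted p from 0.632 to 0.878.

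In purine breakdown, the pathway of Xdh, 0 of 11 tested genes passed over the whole table, 7 were higher and 4 lower, and the median log2 difference was 0.03. At an unadjusted p under 0.05 in limma there was 1 of them, Gda, a share close to the 8.64% of all probe sets. Gda encodes guanine deaminase, which makes xanthine, a substrate of Xdh. Its brighter probe set read 754.7, 495.4, 581.3 and 452.3 in hypoxic pools, against 335.1, 285.6, 379.9 and 353.1 in normoxic pools. The groups did not overlap, as for 5.39% of all tested probe sets, and the log2 difference was 0.71 with an interval from 0.37 to 1.05 (limma, adjusted p = 0.159). Its other probe set also had no overlap, with 361.6 to 517.9 in hypoxic and 229.1 to 344.5 in normoxic pools (log2 difference 0.57, adjusted p = 0.271). Hypoxic pool 1 was the highest for Gda on both probe sets and the lowest for Xdh. Uox, which degrades uric acid in the rat, differed by -0.14 and the nucleoside transporter gene Slc29a1 by 0.11. The adenosine kinase gene Adk differed by -0.07 on its brighter probe set. Its dimmer probe set differed by -0.23, lower in hypoxic pools with no overlap between groups (limma, unadjusted p = 0.0351, adjusted p = 0.533).

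Retinoid genes were examined because aldehyde oxidase can oxidise retinaldehyde. Of 17 with a probe set, 8 were below the filter of the fit, Aldh1a1 and Rxra among them, so nothing is said of these. Of the 9 tested, 0 passed limma and 0 had an unadjusted p under 0.05, 3 were higher and 6 lower, with a median log2 difference of -0.06. The retinoic acid receptor gene Rarb differed by -0.16, the retinol dehydrogenase gene Rdh10 by -0.17, the retinaldehyde reductase gene Dhrs3 by 0.17 and the binding protein gene Crabp2 by 0.11, with adjusted p from 0.749 to 0.898 in limma.

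**Figure D4:**
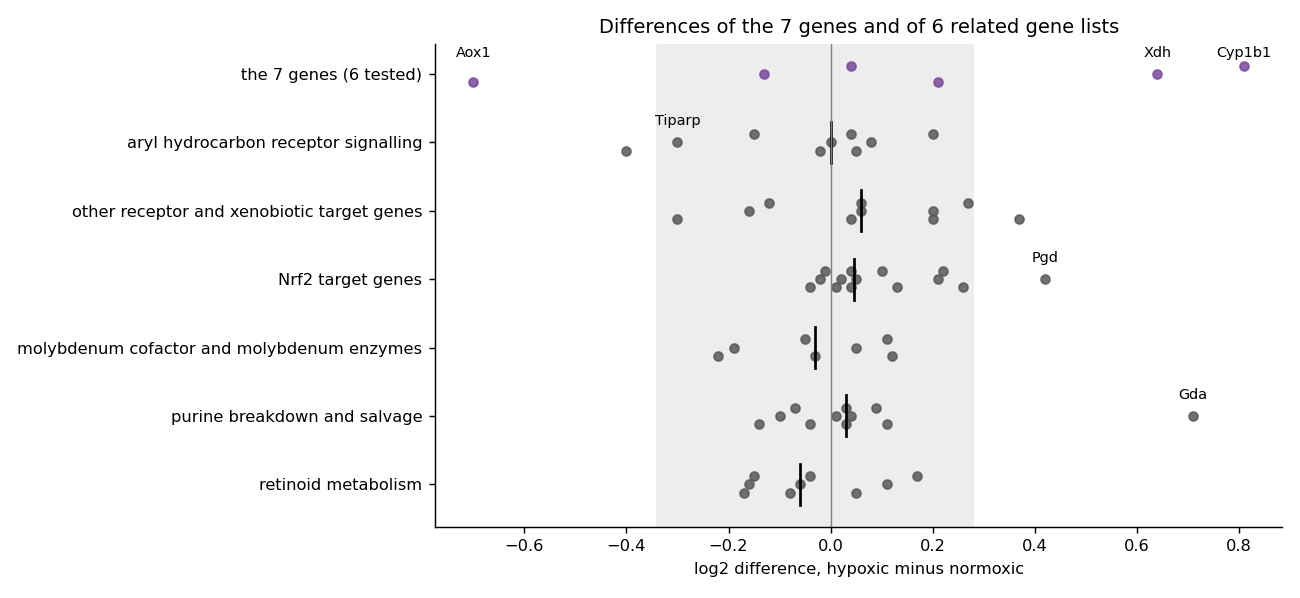
Log2 difference, hypoxic minus normoxic, of the 6 tested genes (top row) and of the tested genes of 6 related lists, 1 point per gene at its brightest probe set, with a bar at the median of each list; the grey band holds the middle 90% of all tested probe sets. List medians lie between -0.06 and 0.06, and Gda at 0.71 is the highest point of the lists.

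The genes whose pattern over the 8 pools was most like that of Cyp1b1 were Epdr1 (Pearson r = 0.967), Baalc (0.963), Ddah1 (0.960) and Vldlr (0.953). These values hold the difference between the groups as well as the order within them. After the group means were subtracted the correlations were 0.862, 0.850, 0.758 and 0.771. The genes were picked on a correlation that holds the order within groups, so high values here follow from that choice. Ddah1, the enzyme that breaks down an inhibitor of nitric oxide synthesis, averaged 395 ± 14.4 in hypoxic and 268 ± 34.9 in normoxic pools (SD, n = 4 pools each), a log2 difference of 0.54. Vldlr, a lipoprotein receptor gene, had a log2 difference of 0.59, Baalc one of 0.52 and Epdr1 one of 0.44, with adjusted p from 0.159 to 0.211 in limma. None of the 4 passed.

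Most like Aox1 were Chchd7 (r = 0.958), the cell cycle inhibitor gene Cdkn2c (0.941), Pde6h (0.939) and Akr1c14 (0.933), a hydroxysteroid dehydrogenase of the aldo-keto reductase family. With group means subtracted these were 0.845, 0.708, 0.723 and 0.763, which again follows from the choice. Akr1c14 averaged 1290.3 ± 154 in hypoxic and 1736 ± 179 in normoxic pools (SD, n = 4 pools each), a log2 difference of -0.43. Cdkn2c also differed by -0.43, Pde6h by -0.53 and Chchd7 by -0.30, with adjusted p from 0.214 to 0.399 in limma. These correlations describe 8 pools. Each set was picked as the highest among those of the 11106 tested probe sets that carried 1 symbol, with 1 entry per gene.

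Markers of the gland's cell types and of other cells were set beside these values, and their part in the results was not tested. Array medians lay between 228.6 and 249.2. All 10 inner cortex markers with a probe set were measured, 6 higher and 4 lower, with summed intensities from 92860 to 135094 in hypoxic and from 93850 to 127865 in normoxic pools. Of the 10, 2 had an unadjusted p under 0.05 in limma, against 8.64% of all tested probe sets. Both were lower, Inha by a log2 difference of -0.44 and Nr0b1 by -0.23, and neither passed after adjustment. At the brightest probe set, all 12 measured chromaffin markers were higher in hypoxic glands, where 45.2% of all tested probe sets were. Phox2a was among these with a log2 difference that rounds to 0.00. Of the 12, 1 passed the threshold, Slc18a2, against 0.180%. At an unadjusted p under 0.05 in limma there were 7 of the 12, against 8.64%, and 4 had no overlap between groups, against 5.39%. Their sums ran from 44210 to 60454 in hypoxic and from 37692 to 49817 in normoxic pools. A further probe set of Ddc had a log2 difference of -0.06. For Slc18a2 a further probe set was at 0.61 with overlapping groups and did not pass (limma, adjusted p = 0.399). Of 12 tested leukocyte markers 9 were lower and 3 higher, with sums from 5369 to 6636 in hypoxic and from 6045 to 7453 in normoxic pools. C1qa, C1qb and C1qc, all lower, had an unadjusted p under 0.05 in limma, 3 of the 12, against 8.64%. No overlap between groups was found for 2 of the 12, against 5.39%, and none passed after adjustment. Of 10 endothelial markers 6 were lower and 4 higher, with sums from 5504 to 6392 in hypoxic and from 5754 to 6607 in normoxic pools. Among the 10, 1 had an unadjusted p under 0.05 in limma, a share close to the 8.64% of all probe sets. It was Pecam1, with a log2 difference of -0.53 and no overlap between groups. All 9 tested adipose markers were lower, where 45.2% of all tested probe sets were higher, with sums from 4762 to 11353 in hypoxic and from 5714 to 14978 in normoxic pools. Among the 9, 1 had an unadjusted p under 0.05 in limma, a share close to the 8.64% of all probe sets. It was Ucp1, with a log2 difference of -1.46 and overlapping groups. All 3 tested erythroid markers were higher, where 45.2% of all tested probe sets were, with sums from 18525 to 28636 in hypoxic and from 17766 to 20589.9 in normoxic pools. Of the 3, 2 had an unadjusted p under 0.05 in limma, against 8.64% (Alas2 with a log2 difference of 0.42 and Slc4a1 with 0.65). None of them passed after adjustment, and a further probe set of Slc4a1 had a log2 difference of -0.04. In the lists of fibroblast (12 tested, 7 higher), outer cortex and capsule (6 tested, 3 higher), Schwann cell (6 tested, 2 higher) and kidney and liver markers (6 tested, 2 higher), 0 had an unadjusted p under 0.05 in limma, and the sums overlapped. Of the markers with a probe set, 0 were at 0 in all pools. The Gapdh ratio of 5' to 3' signal, a sign of RNA integrity, was 0.609 ± 0.0426 in hypoxic and 0.665 ± 0.0643 in normoxic pools (SD, n = 4 pools each). With it as a covariate, chosen after seeing the data, the log2 difference was 0.98 for Cyp1b1, -0.66 for Aox1 and 0.56 for Xdh, and none of the 3 passed (limma, adjusted p = 0.0819, 0.161 and 0.354). The beta-actin ratio was 0.495 ± 0.191 in hypoxic and 0.607 ± 0.143 in normoxic pools (SD, n = 4 pools each). Its lowest value, 0.249, was in hypoxic pool 1, the lowest of its group for Cyp1b1, Aox1, Xdh and Ephx1. The Gapdh ratio of that pool was 0.618, and a link to these genes was not tested. With the beta-actin ratio in place of the Gapdh ratio the log2 differences in limma were 0.87 for Cyp1b1, -0.61 for Aox1 and 0.65 for Xdh. Cyp1b1 and Aox1 passed (limma, adjusted p = 0.0302 and 0.0317, and 0.107 for Xdh).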

How the data were processed

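Per the labels, total RNA of each pool was made into biotin-labelled cRNA and hybridised to 1 array. The deposited values are probe set intensities on a linear scale in arbitrary units. Which software summarised the probes was not given in the sources used here. Each array's trimmed mean was 500.1, so the authors had set all arrays to 1 mean, which hides a change shared by most transcripts. Symbols are those of the platform's annotation, some of them old, and all 7 genes matched a RefSeq gene. With 57 control probe sets removed, 15866 remained, of which 12783 carried 1 symbol, 312 several (not used for names) and 2771 none.

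Intensities were floored at 1 and transformed as log2(intensity + 16), which understates changes of dim probe sets. Probe sets with a mean below the 30th percentile were left out, which kept 11106. The comparison used lmFit and eBayes of limma 3.58.1, with a variance trend, under R 4.3.3. Tests were two-sided, p-values were adjusted by Benjamini-Hochberg over all 11106, and the threshold was 0.05. Python 3.11.15, pandas 2.3.3 and matplotlib 3.10.9 made tables and plots. In simulated data for this comparison on 11106 probe sets, 41 of 100 changes of 0.6 log2 and 88 of 100 changes of 1 log2 were recovered. There were 6 false calls. The simulated noise was drawn independently for each value, so effects shared across an array were not part of it. The genes and lists were chosen with earlier results of these data known. Named are the 7 genes, the 4 lowest p-values in each of 6 lists, and the 4 genes most like Cyp1b1 and Aox1 by Pearson correlation. A gene stands at its brightest tested probe set. Por, Nfe2l2, Cyp1a2 and the single cell type markers named, Alas2 and Slc4a1 among them, were added after their values were seen. Precision is limited by the number of arrays. Alternatives were the offset, the filter, the trend, the normalization, probe sets averaged per gene, a replicate block, each pool left out, and 2 RNA integrity ratios as covariates.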

Additional observations from a re-analysis of the deposited data

Results flagged for a closer look

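In 4 cases 1 pool stood far from the other 3 of its group for a gene named here, among 80 groups examined. Chance flags about 1 in 20 groups, which gives 4.0. Cyp1b1 measured 8227.0 in hypoxic pool 2, while the other hypoxic pools lay between 7392.0 and 7489.8. Aox1 measured 2224.0 in normoxic pool 3, while the other normoxic pools lay between 1858.9 and 1870.7. Srxn1 measured 371.0 in hypoxic pool 3, below the 536.0 to 564.8 of the other hypoxic pools. Cdkn2c measured 708.7 in hypoxic pool 3, above the 581.5 to 599.7 of the others. The Cyp1b1 difference was 0.77 without hypoxic pool 2 (limma, adjusted p = 0.123), and the Aox1 difference was -0.64 without normoxic pool 3 (adjusted p = 0.0987), both on the log2 scale.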

How the results depend on the processing

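The direction of Cyp1b1, Aox1, Xdh, Ahr and Ephx1 was the same under all alternatives run, and none of the 6 lists gained a gene past the threshold in any of 19. With no brightness filter, Cyp1b1 kept its log2 difference of 0.81 and Aox1 its -0.70 with adjusted p of 0.0841 and 0.0693. With no variance trend they kept 0.81 and -0.70, with an adjusted p of 0.0852 for each, and in both settings 0 of the probe sets of the whole table passed in limma (1199 and 941 had an unadjusted p under 0.05). Leaving out 1 pool gave 0.70 to 0.92 for Cyp1b1, -0.75 to -0.60 for Aox1, 0.55 to 0.75 for Xdh, 0.04 to 0.34 for Ephx1, -0.25 to -0.05 for Ahr and -0.07 to 0.21 for Nqo1. The count over the whole table was 20 and ran from 0 to 31 with 1 pool left out. It was 31 without hypoxic pool 1, 2 without hypoxic pool 4, 1 without normoxic pool 4 and 0 without any of the others. With the Gapdh ratio as a covariate, chosen after seeing the data, Cyp1b1 was at 0.98 and Aox1 at -0.66 and 0 probe sets passed (806 at an unadjusted p under 0.05); with the beta-actin ratio, 31 passed. The cause of these shifts was not tested. Whether same-numbered pools share more than a number was not stated in the sources used here. Their deviations from the group means correlated at 0.323, 0.003, 0.186 and -0.043, and 4 of 8 pools correlated best with their own number. The beta-actin ratio was lowest in pool 1 and highest in pool 3 of both groups. What same-numbered pools have in common was not tested. With the replicate block, 18 probe sets passed, and Cyp1b1 had 0.81 with an adjusted p of 0.0523 and Aox1 -0.70 with 0.0371. With the filter at the 50th percentile Ahr and Nqo1 were not tested. No detection calls were used. Which probe sets were too dim for the fit was set by the brightness filter on the mean signal. The bacterial probe sets served only as a guide to the range of background.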
